A study of Mus musculus with 6 samples.

Results

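Klrg1 and 5 further genes of natural killer type receptors and killing granules, Klrb1c, Klrd1, Klrk1, Nkg7 and Prf1, were followed in splenic regulatory T cells (Treg), the Foxp3-expressing CD4 T cells that restrain immune responses. They are 6 of the 37991 genes in the deposited count table and were chosen by symbol from earlier results on these counts, namely their change between the libraries with much and with little Trim28. Their own values are therefore given as a description, without a test. RNA of YFP-positive CD4 T cells from spleen was sequenced in 3 libraries labelled KAP1 deficient and 3 labelled wild type, KAP1 sufficient. KAP1, encoded by Trim28, is a co-repressor that zinc finger proteins of the KRAB class bring to DNA. The strain background is labelled C57BL/6 for all sufficient libraries and for deficient replicate 1, and C57BL/7 and C57BL/8 for deficient replicates 2 and 3. Age, the allele that carries YFP, the Trim28 allele, what deletes it and any pooling of animals are not stated. Nor is it stated that the samples are separate animals, so a p-value here reflects the spread among the libraries alone, some of which may be technical.

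The KLR genes encode lectin-like receptors of natural killer (NK) cells that some T cells also use. KLRG1 is inhibitory, carries an inhibitory tyrosine motif in its cytoplasmic tail and binds cadherins on neighbouring cells. On T cells it marks late effector stages, and in the Treg compartment it marks an effector fraction. NK cells and cytotoxic T cells kill through granules that hold perforin and granzymes.

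Trim28 went against the label in 2 libraries. Its counts were 232, 185 and 2544 in the libraries labelled deficient replicates 1, 2 and 3, against 2462, 2483 and 218 in those labelled sufficient replicates 1, 2 and 3. The libraries labelled deficient 1, deficient 2 and sufficient 3 are therefore called Trim28-low below, and those labelled deficient 3, sufficient 1 and sufficient 2 Trim28-high. As this split rests on measured counts, values by Trim28 level are a description with no test. Tests were run under the labels with all 6 libraries, and on the 4 libraries of replicates 1 and 2, in which Trim28 goes with the label. Library totals ran from 9954344 to 10994745 counts, so that 3 counts, the limit that a count of 0 allows, stand for 0.273 to 0.301 CPM, the count relative to the library total. Such limits and the intervals below cover counting error only. The Treg markers Foxp3, Il2ra, Ctla4, Tnfrsf18, Ikzf2, Cd4 and Cd3e summed to 4283 to 4423 CPM in the Trim28-low and 4485 to 4549 CPM in the Trim28-high libraries. All 7 were tested in the 4 libraries, where 1 was called higher and 2 lower in deficient cells.

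Klrg1 (ENSMUSG00000030114) lies on chromosome 6 at 122270596 to 122282882 on the minus strand (mm10). It had 3, 9 and 86 counts in the libraries labelled deficient 1, 2 and 3, against 119, 93 and 12 counts in those labelled sufficient 1, 2 and 3. The labelled groups overlap, because the library labelled deficient 3 is high and the one labelled sufficient 3 is low. By Trim28 level they do not overlap: Klrg1 stood at 0.298 to 1.16 CPM in the Trim28-low libraries and at 7.82 to 11.8 CPM in the Trim28-high ones. Over replicates 1 and 2, 12 counts in deficient cells against 212 in sufficient cells gave a ratio of 0.0573, with a 95% exact binomial interval of 0.0291 to 0.102. The fitted log2 fold change (deficient over sufficient) in these 4 libraries was -4.09 ± 0.35 (SE), and without single libraries it ran from -5.07 (without deficient replicate 2) to -3.51 (without deficient replicate 1). With only 3 counts, the level in deficient replicate 1 is that of the limit itself. The share of mitochondrial counts split the same way, at 1.33 to 1.41% in the Trim28-low and 1.61 to 2.097% in the Trim28-high libraries, and its part in these values was not tested. In bulk RNA, fewer cells that carry a transcript and less of it per cell cannot be told apart.

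Klrb1c encodes NK1.1, the activating receptor by which NK cells of this strain family are recognised. The gene (ENSMUSG00000030325) lies on chromosome 6 at 128778485 to 128789215, minus strand. It had 109, 96 and 24 counts in the libraries labelled deficient 1, 2 and 3, against 28, 26 and 90 counts in those labelled sufficient 1, 2 and 3. Its order is the reverse of that of Klrg1, high wherever Trim28 is low, at 8.74 to 10.8 CPM in the Trim28-low libraries and 2.18 to 2.77 CPM in the Trim28-high ones. The ratio of summed counts over replicates 1 and 2, 205 in deficient against 54 in sufficient cells, was 3.84 (interval 2.84 to 5.29), and the fitted log2 fold change was 1.94 ± 0.22 (SE). An annotated gene on the same strand, Gm44511, shares 13.9% of the exonic bases of Klrb1c, and reads there could be assigned to either or to neither. Reads of close relatives could also be misassigned, and this was not tested. Of these relatives, Klrb1a was assigned 0 to 2 counts per library, Klrb1b 0 to 1, and Klrb1 none in all 6. Klrb1f, a relative that was detected, had 9, 12 and 13 counts in the libraries labelled deficient, against 13, 24 and 9 in those labelled sufficient, and did not pass the test in the 4 libraries (log2 fold change -0.79 ± 0.42, edgeR adjusted p = 0.221).

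**Figure D1:**
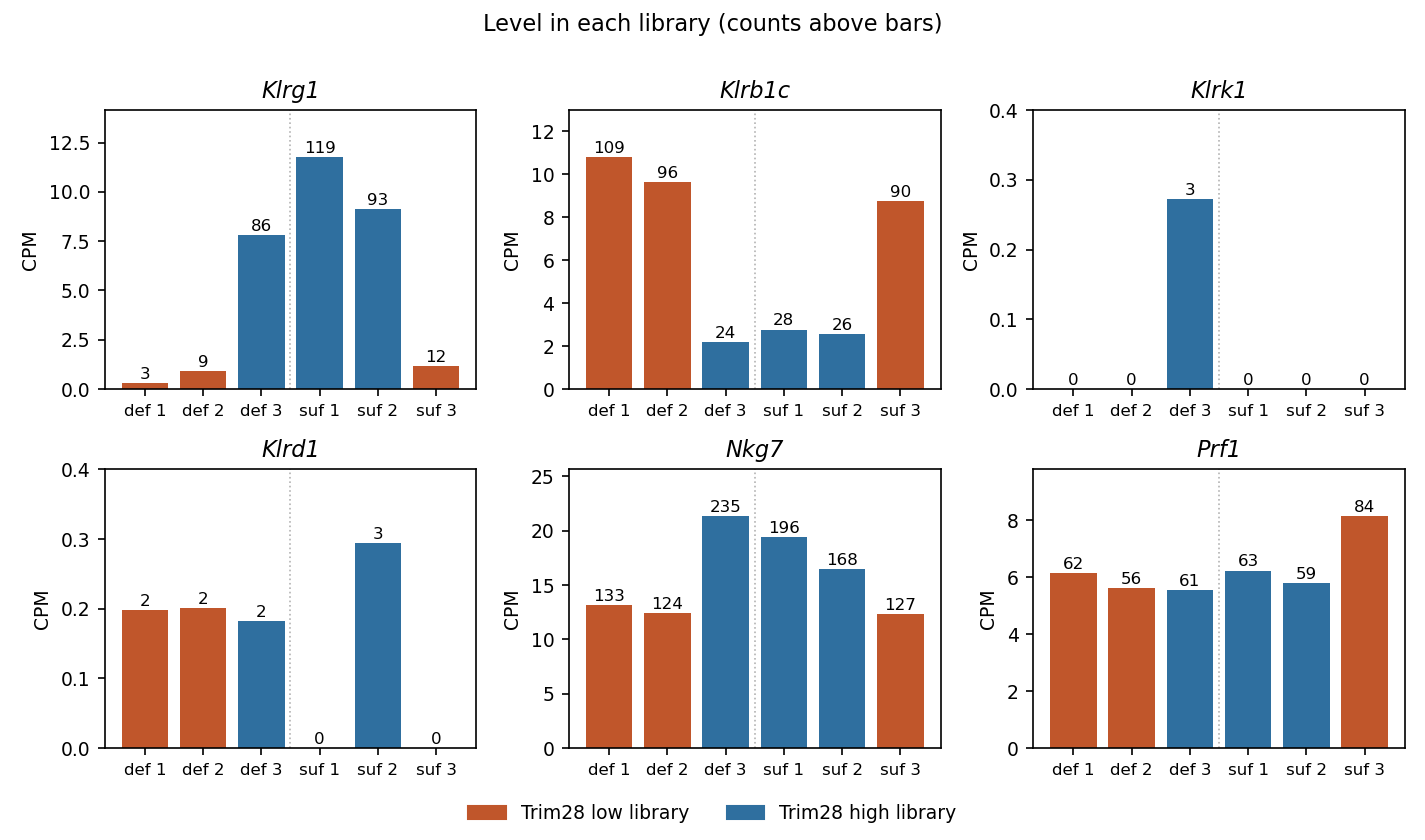
Level of the 6 genes in each library, in CPM on axes that start at 0, with the counts written above the bars. Libraries labelled deficient (def) stand left of the dotted line and those labelled sufficient (suf) right of it, and the colour gives the Trim28 level. Klrg1 has 3 to 12 counts in Trim28-low libraries and 86 to 119 in Trim28-high ones, Klrb1c runs the other way, and the Prf1 ranges overlap.

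The promoter of Klrb1c is shown because this receptor was high in the same libraries in which Klrg1 was low. RefSeq promoters, on GRCm38.p6, run from 250 bases before to 50 after the RefSeq start. The table used here held 4 of the 6 genes and had no entry for Klrg1 or Klrd1. The sequence is that of chr6:128788592-128788891, minus strand, and the capitals mark TGTGGT or its reverse complement ACCACA, the core motif of Runx factors.
Klrb1c: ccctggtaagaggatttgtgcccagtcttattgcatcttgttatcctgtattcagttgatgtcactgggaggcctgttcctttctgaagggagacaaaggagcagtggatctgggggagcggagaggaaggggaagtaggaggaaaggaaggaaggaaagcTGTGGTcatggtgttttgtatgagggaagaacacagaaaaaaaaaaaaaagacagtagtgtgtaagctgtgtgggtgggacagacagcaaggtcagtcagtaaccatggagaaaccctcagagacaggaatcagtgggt
The motif starts 89 bases before the RefSeq start on which the window is built. That start, at 128788641, lies 574 bases inside the gene bounds given above, which are from GENCODE, so the whole window falls within the GENCODE gene. It is present in 16.8% of all 32851 promoters of the table, read on both strands. A letter match describes the window and is not a binding site.

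The library-by-library ratio of the pair of receptors turned over. Per exonic length, Klrg1 stood at 0.0576 and 0.196 times Klrb1c in the libraries labelled deficient 1 and 2 and at 0.279 times in sufficient 3, against 7.50 times in the library labelled deficient 3 and 8.90 and 7.49 times in sufficient 1 and 2. This ratio is taken within a library and does not depend on the scaling between libraries.

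Klrd1 encodes CD94, which pairs with NKG2 chains to bind the nonclassical molecule Qa-1. The gene (ENSMUSG00000030165, chromosome 6, 129591782 to 129598775) had 2, 2 and 2 counts in the libraries labelled deficient, against 0, 3 and 0 in those labelled sufficient. Klrk1 encodes NKG2D, which binds ligands induced by cell stress. The gene (ENSMUSG00000030149, chromosome 6, 129610323 to 129623864) had 0, 0 and 3 counts in the libraries labelled deficient, against 0, 0 and 0 in those labelled sufficient. All values of both genes lie at or below 3 counts, so no difference was detectable at this depth, and neither gene passed the filter on low counts. The only partners of CD94 in the lists, Klrc1, Klrc2 and Klrc3, were at 0 in all 6 libraries.

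Nkg7 encodes a membrane protein of cytotoxic granules that takes part in their release. The gene (ENSMUSG00000004612) lies on chromosome 7 at 43437073 to 43438249, plus strand. It had 133, 124 and 235 counts in the libraries labelled deficient 1, 2 and 3, against 196, 168 and 127 counts in those labelled sufficient 1, 2 and 3. Like Klrg1 it was lower in every Trim28-low library, at 12.3 to 13.2 CPM, than in every Trim28-high one, at 16.5 to 21.4 CPM, but by far less. The fitted log2 fold change in the 4 libraries was -0.48 ± 0.14 (SE). Without single libraries it ran from -0.60 (without sufficient replicate 2) to -0.35 (without sufficient replicate 1). Prf1 encodes perforin, the pore-forming protein of the granules. The gene (ENSMUSG00000037202) lies on chromosome 10 at 61297833 to 61304680, plus strand. It had 62, 56 and 61 counts in the libraries labelled deficient, against 63, 59 and 84 in those labelled sufficient. Its ranges overlap both by label and by Trim28 level (5.63 to 8.15 CPM in Trim28-low and 5.55 to 6.24 CPM in Trim28-high libraries). The summed counts over replicates 1 and 2, 118 in deficient against 122 in sufficient cells, gave a ratio of 0.979 with an interval of 0.754 to 1.27.

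The promoters of this pair of granule genes are shown side by side because one gene was low with Trim28 and the other was not. They are chr7:43436888-43437187 for Nkg7 and chr10:61297586-61297885 for Prf1, both on the plus strand. Capitals mark AGGTGTGA or TCACACCT, bound by T-box factors such as the product of Tbx21, and the Runx core as above.
Nkg7: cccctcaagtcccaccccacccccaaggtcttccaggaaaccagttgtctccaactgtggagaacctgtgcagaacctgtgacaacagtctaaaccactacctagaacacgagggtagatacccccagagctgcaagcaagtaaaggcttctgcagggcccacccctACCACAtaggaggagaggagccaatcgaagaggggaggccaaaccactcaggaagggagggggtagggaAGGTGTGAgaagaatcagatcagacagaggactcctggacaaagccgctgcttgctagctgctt
Prf1: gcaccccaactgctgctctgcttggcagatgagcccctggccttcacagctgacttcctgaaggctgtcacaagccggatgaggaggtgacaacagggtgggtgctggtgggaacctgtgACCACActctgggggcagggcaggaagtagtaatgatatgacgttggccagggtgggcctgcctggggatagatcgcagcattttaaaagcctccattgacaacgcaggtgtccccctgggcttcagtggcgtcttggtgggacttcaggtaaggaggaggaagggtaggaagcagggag
In Nkg7 the T-box motif starts 14 bases before the RefSeq start and the Runx core, on the other strand, 83 bases before it. The RefSeq start of Nkg7, at 43437138, lies 65 bases inside the GENCODE gene bounds given above, so the T-box motif lies within the GENCODE gene and the Runx core before it. The RefSeq start of Prf1 lies 3 bases inside its GENCODE bounds. Prf1 has the Runx core on the other strand 130 bases before its RefSeq start. Its window has no exact match to the T-box letters but holds AGGTGTCC, which differs from AGGTGTGA only at its end. The motifs were chosen with the sequences seen, and their part in the levels of either gene was not tested. The T-box motif is present in 1.28% of all promoters of the table. Klrk1, whose promoter is not printed, also has the Runx core and no exact T-box match.

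Of the 6 genes, 4 passed the filter on low counts, and Klrd1 and Klrk1 did not. Fitted under the labels with all 6 libraries, the log2 fold changes were -1.26 ± 1.33 for Klrg1, 0.68 ± 0.79 for Klrb1c, -0.04 ± 0.24 for Nkg7 and -0.22 ± 0.18 for Prf1 (SE). Klrg1 averaged 3.01 ± 4.18 CPM in the libraries labelled deficient and 7.36 ± 5.53 CPM in those labelled sufficient (SD, n = 3 each). Klrb1c averaged 7.55 ± 4.68 CPM in those labelled deficient and 4.69 ± 3.51 CPM in those labelled sufficient (SD, n = 3 each). By label the ranges of all 4 genes overlap, where 12.8% of the 12158 genes tested have ranges apart. By Trim28 level the ranges of Klrg1, Klrb1c and Nkg7 do not overlap, as was so for 26.4% of those genes (11.9% with the Trim28-low range above and 14.5% with it below). The genes were picked with these contrasts known, so nothing is read from those counts. The authors' deposited table gives the opposite sign, sufficient over deficient. In the authors' deposited table the log2 fold change was 1.25 ± 0.13 for Klrg1, -0.99 ± 0.13 for Klrb1c, 0.44 ± 0.12 for Nkg7 and -0.08 ± 0.13 for Prf1 (SE). The adjusted p in the authors' deposited table was 1.18e-19 for Klrg1, 4.95e-12 for Klrb1c, 0.0043 for Nkg7 and 0.855 for Prf1, where 6.87% of its genes have one under 0.05. The genes were picked from the same experiment, so these adjusted p-values lend them no separate support. Klrd1 and Klrk1 stood at 0.01 each in the authors' deposited table, with no adjusted p. Their SEs there were only 0.04 and 0.03, although they had 9 and 3 counts in total over the 6 libraries. How the authors' fold changes were estimated is not stated, so their sizes cannot be set against those fitted here. Trim28 was at 3.11 ± 0.08 in the authors' deposited table, whereas fitted under the labels here it was at -0.90 ± 1.46 and in the 4 libraries at -3.54 ± 0.08 (deficient over sufficient, SE). Which libraries entered the authors' comparison, and under which labels, is not stated. The authors' mean count for Klrk1 was 0.805, while in the count table only the library labelled deficient 3 had Klrk1 counts.

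Per exonic length, Nkg7 was the highest of the 6 genes in all 6 libraries, at 13.5 to 14.4 CPM per kb in Trim28-low and 18.1 to 23.4 in Trim28-high libraries. In the Trim28-low libraries Klrb1c (2.95 to 3.65 CPM per kb) and Prf1 (2.18 to 3.16) came next with overlapping ranges, followed by Klrg1 (0.210 to 0.824). In the Trim28-high libraries Klrg1 came second (5.53 to 8.33 CPM per kb), then Prf1 (2.15 to 2.41) and Klrb1c (0.737 to 0.936), with no overlap between neighbours in that order. Klrd1 reached at most 0.230 and Klrk1 at most 0.0380 CPM per kb. Among 11838 tested genes with a length, Klrg1 ranked at the 1.58 to 8.86 percentile in the Trim28-low and at the 37.9 to 49.5 percentile in the Trim28-high libraries. Klrb1c ranked at the 24.5 to 28.6 percentile in the Trim28-low and the 8.13 to 10.04 percentile in the Trim28-high libraries.

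**Figure D2:**
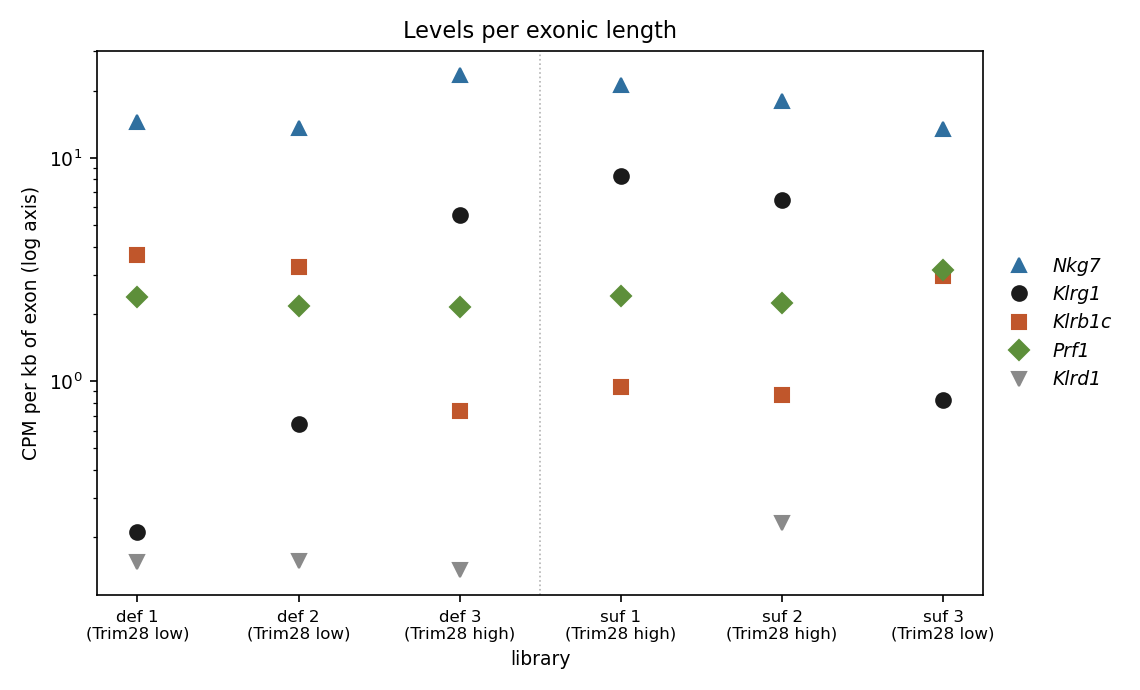
Level per exonic length of 5 of the genes in each library, in CPM per kb on a log axis. Values of 0 (Klrd1 in the libraries labelled sufficient 1 and 3) and Klrk1 are not drawn. Klrg1 lies above Klrb1c in the 3 Trim28-high libraries and below it in the 3 Trim28-low ones, while Nkg7 is on top in all 6.

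Of 129 further genes of this biology, listed by role, 122 were in the count table, 31 of them at 0 in all libraries. Under the labels 0 of the 73 tested were called by edgeR (5 at an unadjusted p under 0.05) and 0 by DESeq2. Over all genes edgeR called 0.0165% of 12158 there (0.00823% in each direction, and 7.76% at an unadjusted p under 0.05) and DESeq2 0.0322%. In the 4 libraries 74 were tested, of which 11 rose and 18 fell (39.2%, where 17.4% of all 12183 tested genes were called, 9.96% higher and 7.39% lower, and 30.6% had an unadjusted p under 0.05), and their median log2 fold change was -0.08, against -0.00 over all genes tested. With DESeq2's Wald test 13 were called, 6 higher and 7 lower, where 7.57% of all its genes were called, and without deficient replicate 1 there were 15 calls in place of 29.

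Among the ligands, Cdh1 encodes E-cadherin, which KLRG1 binds. Cdh1 had 16, 23 and 7 counts in the libraries labelled deficient 1, 2 and 3, against 2, 0 and 12 in those labelled sufficient 1, 2 and 3. It was low in the libraries in which Klrg1 was high, at 1.16 to 2.31 CPM in the Trim28-low libraries and 0 to 0.637 CPM in the Trim28-high ones. Its 39 counts in deficient against 2 in sufficient replicates 1 and 2 gave a ratio of 19.7 with a wide counting interval of 5.11 to 169. It rose in the 4-library test (log2 fold change 4.15 ± 0.70, edgeR adjusted p = 0.000844), and the fold change ran from 3.22 to 7.31 without single libraries. With 2 and 0 counts in sufficient replicates 1 and 2, Cdh1 passed the filter on low counts only through the deficient libraries. At so low a level in sufficient cells, only a rise could have been called. The other ligand genes tested, H2-T23 for Qa-1 and Clec2d and Clec2i for receptors of the Klrb1 family, had log2 fold changes of -0.00 ± 0.08, 0.07 ± 0.05 and 0.15 ± 0.06 and did not pass. The other 8 ligand genes in the table did not pass the filter, and 6 of them were at 0 in all libraries.

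Among 23 other lectin-like receptor genes counted, 18 were at 0 in all libraries, among them Klre1 and all but 1 of the Klra genes listed. Only Klrb1f and Cd69, an early activation receptor, were tested, and neither was called in the 4 libraries. Cd69 had 1663, 1974 and 1694 counts in the libraries labelled deficient, against 1230, 1688 and 1740 in those labelled sufficient (log2 fold change in the 4 libraries 0.34 ± 0.22). It gained a call with the replicate block (0.35), without deficient replicate 1 (0.47) and without sufficient replicate 2 (0.58).

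Of 10 other receptors of NK cells tested in the 4 libraries, 4 fell and 6 were not called. Over all tested genes 17.4% were called, against 40% here. Tigit, an inhibitory receptor for nectin-family ligands, fell (-0.32 ± 0.08, edgeR adjusted p = 0.00987), with 394, 410 and 587 counts in the libraries labelled deficient, against 497, 522 and 401 in those labelled sufficient. Its Trim28-low range, 38.9 to 41.2 CPM, lies below its Trim28-high range, 49.2 to 53.4 CPM. Slamf7 (-0.74 ± 0.22), the adhesion receptor Cd2 (-0.17 ± 0.05) and the costimulatory receptor Cd27 (-0.18 ± 0.05) also fell. The ranges of Slamf7 and Cd27 overlap by Trim28 level and not by label. None of these calls held throughout: Tigit lost it without sufficient replicate 2 (-0.30), Cd27 without deficient 1 (-0.14) or sufficient 1 (-0.15), Cd2 without deficient 1 (-0.16), deficient 2 (-0.19) or sufficient 2 (-0.15), and Slamf7 without deficient 1 (-0.83), deficient 2 (-0.65) or sufficient 1 (-0.59). With DESeq2 all 4 lost it.

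Adaptors and signal transducers went both ways: 12 were tested, 4 of them rose, 3 fell, and the other 5 stayed above the threshold. The 58.3% called stand against 17.4% over all tested genes. Sh2d1a, the adaptor of SLAM-family receptors, rose (log2 fold change 0.41 ± 0.08, edgeR adjusted p = 0.00251), and so did the adaptor Grb2 (0.24 ± 0.05, edgeR adjusted p = 0.00753). Ptpn11, which encodes the phosphatase SHP-2 that inhibitory receptor tails recruit, had 1364, 1326 and 1762 counts in the libraries labelled deficient, against 1594, 1738 and 1403 in those labelled sufficient. It fell (-0.29 ± 0.06, edgeR adjusted p = 0.00278), as did the T cell receptor chain gene Cd247 (-0.22 ± 0.05). Without deficient replicate 1 the calls of Grb2 (0.21) and Cd247 (-0.18) were lost, and that of Grb2 also with DESeq2. Hcst, which encodes the NKG2D adaptor DAP10, and Ptpn6, which encodes the phosphatase SHP-1, were named after their values were seen, with log2 fold changes of 0.34 ± 0.09 and -0.16 ± 0.05. Tyrobp, the adaptor DAP12 of NK cells, had 0 or 1 count per library.

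Of 17 granule genes tested in the 4 libraries, 3 rose and 1 fell, with 13 not called. That is 23.5% called, near the 17.4% over all tested genes. Ctsw, a cysteine protease of cytotoxic cells, had 1676, 1780 and 1115 counts in the libraries labelled deficient, against 1253, 1021 and 1650 in those labelled sufficient, and rose in the 4 libraries (0.63 ± 0.09, edgeR adjusted p = 0.00095). The granzyme B inhibitor gene Serpinb9 rose (0.50 ± 0.10) with 441, 406 and 375 counts in the libraries labelled deficient, against 336, 273 and 464 in those labelled sufficient, and so did the related Serpinb6b (0.30 ± 0.08). Cst7, which encodes the protease inhibitor cystatin F, fell (-0.35 ± 0.08). Cst7 lost its call without sufficient replicate 2 (-0.27), Serpinb6b without any single library (0.30 to 0.31), and both with DESeq2. For Ctsw and Serpinb9 all Trim28-low libraries lie above all Trim28-high ones. Granzyme B transcripts (Gzmb) were counted 27, 32 and 48 times in the deficient libraries, against 26, 49 and 23 times in the sufficient ones by label, and Gzma had 1 to 3 counts per library.

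The transcription factor list held genes that promote and genes that oppose cytotoxic and late effector states, so its counts have no single direction. Of 14 tested in the 4 libraries, 1 rose and 4 fell, with 9 not called. The share called was 35.7%, against 17.4% over all tested genes. Tbx21, which encodes T-bet, a factor of cytotoxic and type 1 lymphocytes, had 34, 36 and 77 counts in the libraries labelled deficient, against 68, 65 and 41 in those labelled sufficient (log2 fold change -0.90 ± 0.22, edgeR adjusted p = 0.0108). Prdm1, which encodes the effector factor Blimp-1, had 136, 158 and 257 counts in the libraries labelled deficient, against 208, 228 and 186 in those labelled sufficient, and fell (-0.54 ± 0.13, edgeR adjusted p = 0.00788). The call of Tbx21 was lost without deficient replicate 1 (-0.85) or sufficient replicate 1 (-0.86), that of Prdm1 without deficient replicate 1 (-0.43), and both with DESeq2. Id3, an inhibitor of E-protein factors, fell (-0.63 ± 0.07), and Hopx, a homeodomain protein gene, rose (0.50 ± 0.07). All 4 have Trim28-low ranges apart from their Trim28-high ranges. The library labelled deficient 3 stands with sufficient 1 and 2 for each of them.

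Genes known from Klrg1-bearing effector Treg were mostly lower where they changed: of 15 tested in the 4 libraries 6 fell and 2 rose. That makes 53.3% called, against 17.4% over all tested genes (9.96% higher and 7.39% lower). The lists were chosen with earlier results of these data known, so nothing is read from their shares. Icos encodes a costimulatory receptor and had 1664, 1706 and 2610 counts in the libraries labelled deficient, against 2371, 2818 and 1745 in those labelled sufficient (log2 fold change -0.60 ± 0.07, edgeR adjusted p = 1.96e-05). The galectin gene Lgals1 fell (-0.36 ± 0.08), a call lost without deficient replicate 1 (-0.22) or sufficient replicate 2 (-0.34), while the ectoenzyme gene Cd38 rose (0.61 ± 0.11). The Cd38 ranges do not overlap by label, at 302, 301 and 294 counts in the libraries labelled deficient against 211, 191 and 245 in those labelled sufficient, and overlap by Trim28 level. Of the 21 called genes that the naming rule takes from these lists 10 kept their call under each single left-out library and with DESeq2, among them Cdh1, Sh2d1a, Ptpn11, Ctsw, Serpinb9, Id3, Hopx, Icos and Cd38. The other 11 lost it in at least 1 of these settings, Serpinb6b without any of the 4 libraries. Cdh1 entered the 4-library test only through its counts in the deficient libraries, so its kept call lends no separate support.

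**Figure D3:**
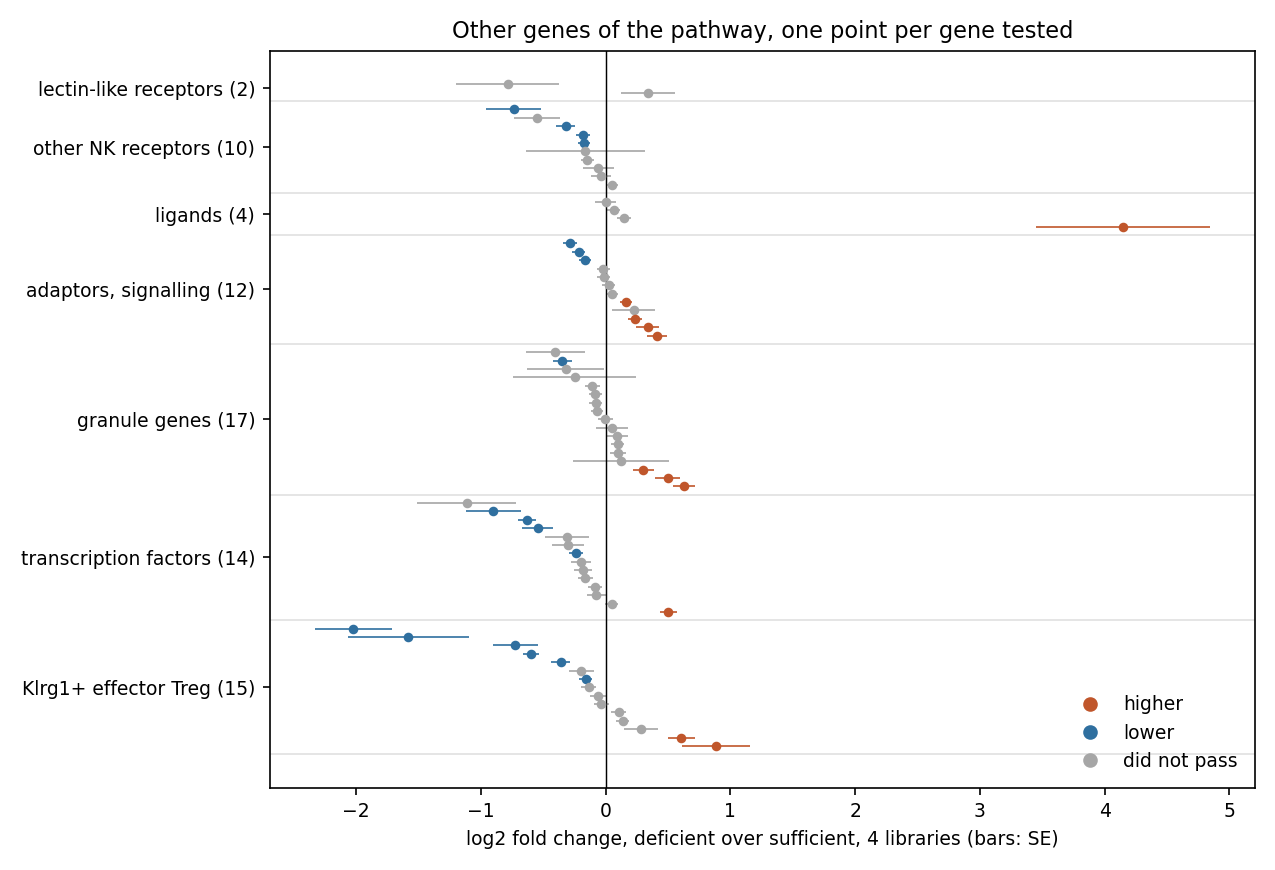
Log2 fold change (deficient over sufficient, replicates 1 and 2) of each tested non-member gene by list, with SE bars and the number tested in brackets. Colour shows genes called higher or lower at an edgeR adjusted p of 0.05. Most points lie within 1 of 0, with Cdh1 at 4.15 farthest out.

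Markers of other cells were read beside these values. Of 11 NK cell markers 5 were at 0 in all libraries (Ncr1, Klra8, Klra4, Klre1 and Klri2), 3 were tested and none was called in the 4 libraries. Their summed level was 6.02 to 9.54 CPM in the Trim28-low and 8.55 to 11.7 CPM in the Trim28-high libraries. The 6 CD8 T cell markers summed to 18.2 to 18.9 CPM in Trim28-low and 17.9 to 25.4 CPM in Trim28-high libraries with none called, and Cd8a had 0 to 5 counts. The 7 myeloid markers summed to 5.34 to 7.94 CPM in Trim28-low and 4.73 to 6.43 CPM in Trim28-high libraries, with none called.

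Some markers of gamma delta T cells and B cells also differed in the 4 libraries. Of 4 markers of gamma delta and invariant T cells in the table the 2 tested rose, Tcrg-C2 (2.51 ± 0.17, edgeR adjusted p = 9.87e-08) and Tcrg-C1 (0.71 ± 0.19, edgeR adjusted p = 0.0181), both constant segments of the gamma receptor chain. The list summed to 29.5 to 36.1 CPM in the Trim28-low and 9.90 to 13.6 CPM in the Trim28-high libraries. Its other markers in the table, Zbtb16 and Sox13, had 0 to 1 and 0 to 4 counts. Of 7 B cell markers 3 were tested and 2 fell, Cd22 and Igkc, and the list summed to 15.5 to 16.0 CPM in the Trim28-low and 23.01 to 27.6 CPM in the Trim28-high libraries, with Ms4a1 and Pax5 at 0 to 1 count each. The part of any of these cell types in the values of Klrg1 and Klrb1c was not tested.

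The 5 genes with the library profile nearest to that of Klrg1, by the mean absolute difference of log2(CPM + 0.5) centred on each gene's mean over the 6 libraries, were sought among 10314 genes. They were Slc1a5, a glutamine transporter gene (difference 0.41), Trim28 itself (0.43), the adhesion gene Bcam (0.45), Ccdc61 (0.51) and the histone deacetylase gene Hdac9 (0.62). Slc1a5, Trim28, Bcam and Ccdc61 lie on chromosome 7 and Hdac9 on chromosome 12, whereas Klrg1 lies on chromosome 6. Trim28 lies at 12999114 to 13031035, Slc1a5 at 16781340 to 16798274, Ccdc61 at 18890883 to 18910415 and Bcam at 19756131 to 19771016. What part this nearness to Trim28 has in the likeness was not tested. Bcam had 8, 11 and 152 counts in the libraries labelled deficient, against 150, 171 and 4 in those labelled sufficient. Hdac9 had 12, 21 and 77 counts in the libraries labelled deficient, against 73, 79 and 6 in those labelled sufficient. The likeness describes these 6 libraries, whose Trim28 counts fall into 2 groups. By chi-square over degrees of freedom between libraries, the library labelled deficient 3 stood apart from both groups. Its values were 7.66 and 8.13 against sufficient 1 and 2, and 9.19 and 9.17 against deficient 1 and 2. Sufficient 1 against sufficient 2 gave 2.94.

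**Figure D4:**
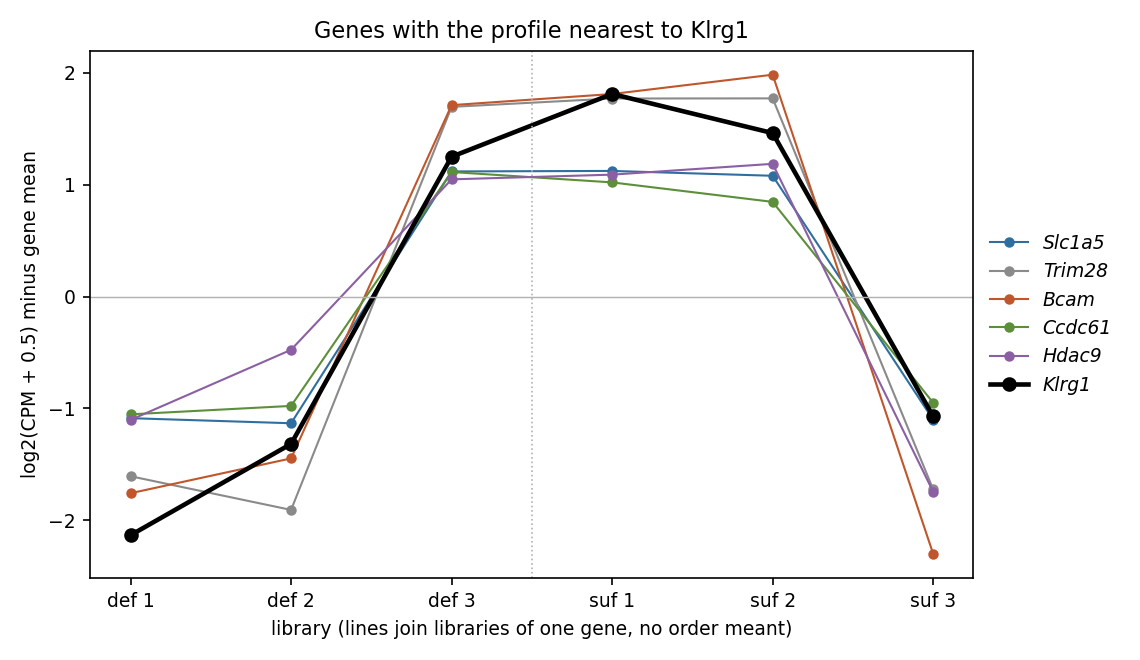
Centred log2(CPM + 0.5) of Klrg1 (black) and of the 5 genes nearest to it in each of the 6 libraries. All 6 genes lie above their mean in the libraries labelled deficient 3, sufficient 1 and sufficient 2 and below it in the other three.

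Of 21 other genes in the table that start within 500 kb of its start, 11 were at 0 and 3 were tested, none of them called in the 4 libraries. M6pr, which encodes a mannose phosphate receptor and starts 25.8 kb away, had 1692, 1583 and 1988 counts in the libraries labelled deficient, against 1788, 1854 and 1727 in those labelled sufficient. Phc1, a Polycomb gene 57.7 kb away, had a log2 fold change of -0.21 ± 0.09, and Apobec1, an RNA-editing gene 320 kb away, of 0.13 ± 0.14. Within 500 kb of Klrb1c 14 genes were tested, none rose, and the 2 that fell, Foxm1 (-0.62 ± 0.14) and Rhno1 (-0.35 ± 0.07), lie 426 kb away. Near Klrd1 and Klrk1, which neighbour each other, 27 of 34 and 27 of 33 genes were at 0 and none of the 3 tested around each was called.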

How the data were processed

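RNA of 6 libraries of YFP-positive splenic Treg was prepared with a TruSeq kit, per the labels' protocols. The submitters' processing notes name HTSeq 0.7.2, TopHat2 2.1.1, DESeq2 and the mm10 build, without their roles. The authors deposited raw, unnormalized read counts for each Ensembl gene. Neither the strand setting nor the annotation release is stated, which leaves reads of overlapping and antisense genes uncertain. The authors' deposited comparison gives, per the file headers, log2 fold changes and their errors, a score for the test, and p-values, raw and adjusted, beside q-values.

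Symbols matched 32919 of 37991 rows, and rows without one held 0.603% of counts. Positions and union exon lengths are from GENCODE M21. CPM used library totals. Between libraries, chi-square over degrees of freedom was 2.52 at the least, so all 6 were kept as separate libraries.

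The tests on counts used edgeR 4.0.16 under R 4.3.3 (quasi-likelihood, robust, TMM, filterByExpr, Benjamini-Hochberg at 0.05 over all genes tested). SEs were derived from the fold change and F. Positive means higher in deficient cells. Alternatives were DESeq2 1.42.0, its size factors, no filter, a replicate block and leaving out libraries. The procedure was tested on simulated data.

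Members, lists, windows and motifs were chosen with earlier results of these data known, and the motifs with the sequences seen. Besides the 6 genes, the text names from each of 7 lists up to 4 called genes with the smallest adjusted p, or the 2 highest where none was called, and the 5 genes nearest to Klrg1 (protein-coding, mean of at least 1 CPM, no predicted genes). List genes not named by that rule are marked or given as levels. A few genes meeting this rule were left out of the text. Tables and plots used Python 3.11.15, pandas 2.3.3 and matplotlib 3.10.9.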

Additional observations from a re-analysis of the deposited data

How the results depend on the processing

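Under the labels edgeR called 2 genes. There were 6 with DESeq2's Wald test, 0 with the replicate block (705 at an unadjusted p under 0.05), 2114 without both doubted libraries and 1 to 807 without single ones, highest without the library labelled sufficient replicate 3. Of the listed non-member genes 0 were called by edgeR (5 at an unadjusted p under 0.05, and 0 by DESeq2), 29 without both doubted libraries and 0 to 7 without single ones, highest again without sufficient replicate 3. In the 4 libraries the 2114 calls became 935 with DESeq2, which kept 44.0% of them, and 2359 with the replicate block, and the 29 list genes became 13 with DESeq2, 35 with the block and 15 to 26 without single libraries, lowest without deficient replicate 1. The cause was not tested. For libraries with the same number, deviations from group means correlated at -0.365, -0.293 and -0.613 over all 6 libraries. In the 4 the value was -0.02. The doubted libraries enter the former values, and the latter rests on 2 libraries per group. Whether the numbers pair samples can therefore not be settled from them. Across the alternatives in the 4 libraries Klrg1 (-5.07 to -3.51), Klrb1c (1.85 to 2.03) and Nkg7 (-0.60 to -0.35) kept their sign, and Prf1 (-0.09 to 0.04) did not. Of 184 values for 23 non-member genes taken by the naming rule 151 stayed, 30 lost the call, 3 gained it and none changed sign. Depth limits Klrd1 and Klrk1, and Klrg1 in deficient replicate 1, to the level of 3 counts.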
